A study of Mus musculus with 10 samples.

Results

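The data concerned 9 genes of signalling by granulocyte colony-stimulating factor (G-CSF), granulocyte-macrophage colony-stimulating factor (GM-CSF) and the interleukin-6 (IL-6) family, out of 32285 genes in a count table of mouse blood leukocytes. They were taken by name as receptors, ligand and STAT3 pathway genes: Csf3r, Csf2ra, Csf2rb, Csf2rb2, Il6ra and Il6st among the receptors, Osm as the ligand, and Stat3 and Socs3 downstream. The choice was made with earlier results of these data known. All 9 were counted in each of the 10 libraries, with 74 counts (Osm in SASD 12 h) to 18987 counts (Csf3r in SD 12 h) in a library. Mice of the strain C57/BL6J were under sleep deprivation (SD) for 6, 12, 24 or 48 h, were subjected to SASD, a method of sleep restriction described before, for 6, 12, 24, 48 or 120 h, or served as the control at 0 h (Con). Blood was drawn into EDTA from behind the eye of mice under pentobarbital, and RNA of 3 mice of a group was made into 1 library, so that no group had a replicate. The sources used here describe neither procedure in detail nor the clock time of sampling. The labels name leukocytes as the cell type, and marker genes of neutrophils (15 of 15), monocytes (12 of 12), B cells (10 of 10), T cells (10 of 10) and NK cells (8 of 8) were counted in all 10 libraries. So were platelet markers (9 of 9).

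Each of these cytokines binds a receptor made of a cytokine-specific chain with, for all but G-CSF, a shared signalling chain. The chains carry JAK kinases, which activate STAT proteins. In blood, G-CSF drives the production and release of neutrophils, GM-CSF acts on neutrophils, monocytes and eosinophils, and IL-6 and its relatives signal mainly through STAT3, one of whose best known targets, SOCS3, shuts off gp130 and the G-CSF receptor in turn.

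STAT dimers are known to bind the palindrome TTCNNNGAA, which reads the same on both strands. The 250 bases before the RefSeq start (GRCm38.p6, the build of mm10) were searched for it in the 7 genes with an entry; Csf2rb and Osm had none. It occurred in 2 of 7, Csf2rb2 and Socs3, against 7.02% of 32851 mouse promoters, and these sequences are shown because they hold it and because Socs3 and Csf2rb2 had the highest single ratios of SD over SASD among the 9, as given below. Capitals mark the palindrome. The Csf2rb2 stretch is chr15:78305722-78305971 on the minus strand, with the palindrome 15 to 7 bases before the start, and the Socs3 stretch is chr11:117969452-117969616 on the minus strand, 165 bases that lie outside annotated exons, with the palindrome 154 to 146 bases before the RefSeq start. In the GENCODE annotation Socs3 begins further upstream, at 117970047, so the Socs3 stretch lies inside the gene's annotated bounds. A match describes the letters and is not a shown site of binding. A link between the palindrome and the ratios was not tested, and Csf2rb and Osm could not be searched.
Csf2rb2: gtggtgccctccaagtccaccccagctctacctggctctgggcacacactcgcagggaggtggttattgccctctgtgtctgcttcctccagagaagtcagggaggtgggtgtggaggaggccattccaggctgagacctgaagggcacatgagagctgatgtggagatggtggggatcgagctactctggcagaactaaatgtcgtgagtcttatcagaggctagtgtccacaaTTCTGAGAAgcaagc
Socs3: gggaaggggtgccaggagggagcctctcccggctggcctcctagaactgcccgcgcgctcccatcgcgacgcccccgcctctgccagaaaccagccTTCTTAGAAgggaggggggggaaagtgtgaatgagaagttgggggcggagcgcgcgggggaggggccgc

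Features of the libraries bear on the values. Haemoglobin genes made up 0.316% of counts at 48 h under SD, 0.275% at 48 h under SASD and 0.727% in Con, against 3.57% to 6.96% in the other 7, so that ratios of SD over SASD at 1 hour never crossed this divide and ratios over Con crossed it at all hours but 48. Total counts ran from 7825120 to 27501393. Levels are given as CPM, counts scaled to a common library size with TMM factors, and 95% intervals of single-library ratios are exact conditional binomial ones that cover counting error only. Fits across libraries used edgeR's quasi-likelihood test over all genes with Benjamini-Hochberg adjustment, a gene being called at an adjusted p under 0.05. In the fit of SD against SASD, the error behind the p-values is how far the difference between methods varied from hour to hour. In the fits of a trend with hours it is how far the pooled libraries lay from that trend. No p-value here measures a spread within a group. Fewer cells of a type and less RNA per cell cannot be told apart in such bulk samples.

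**Figure D1:**
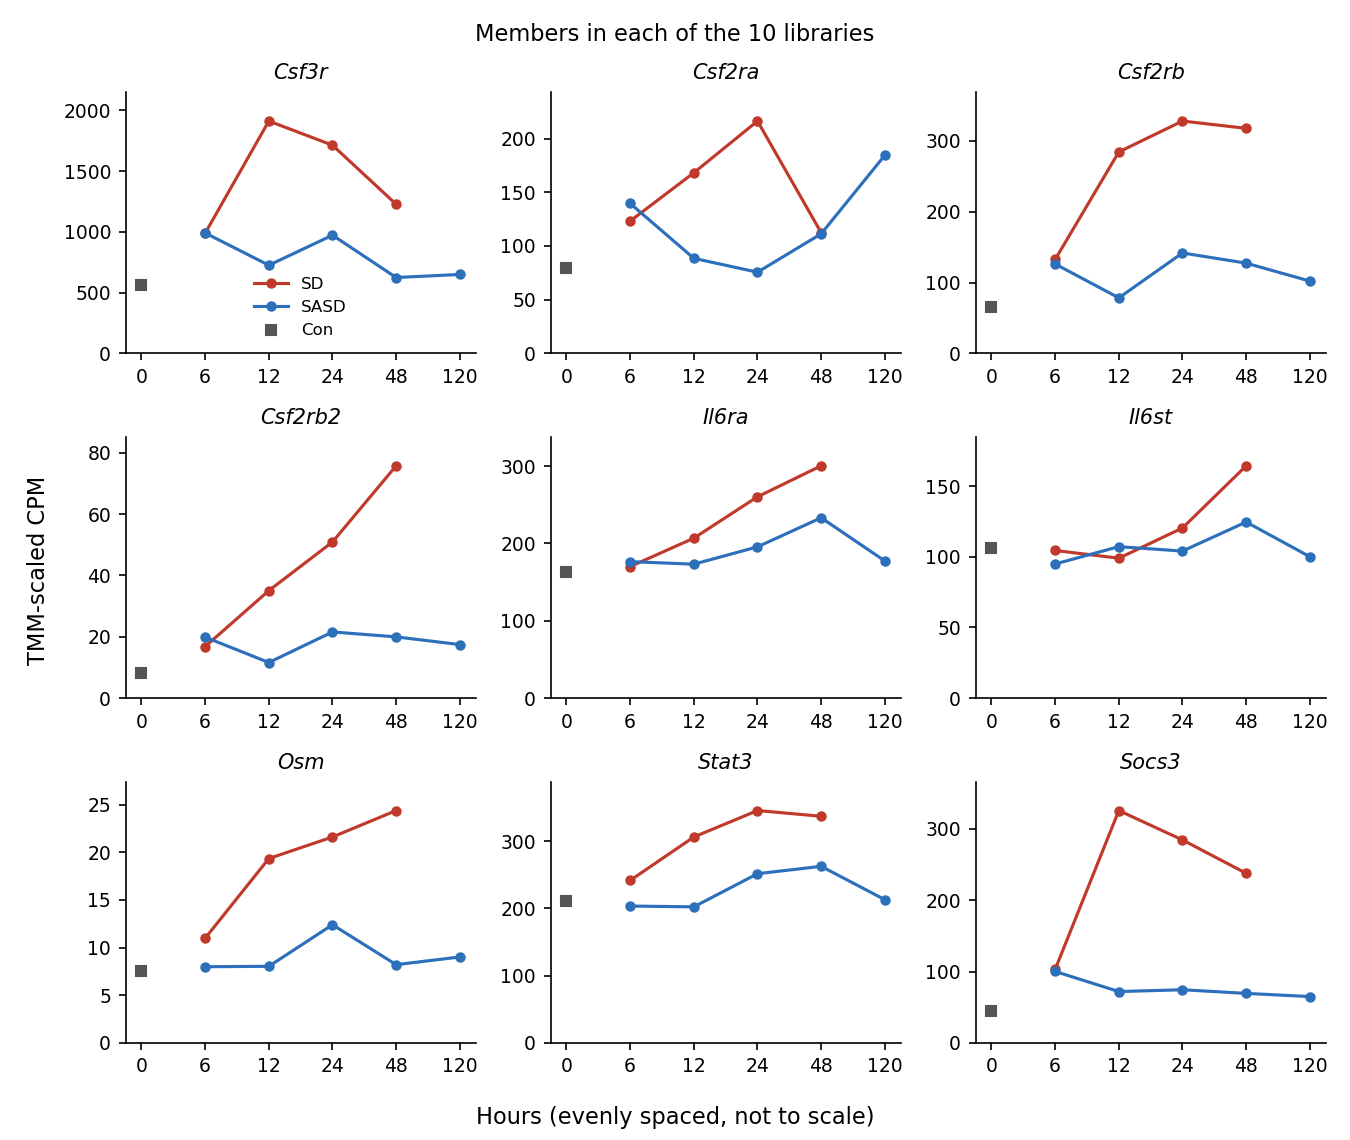
TMM-scaled CPM of the 9 genes by hours, in SD (red), SASD (blue) and Con (grey square), with 1 point per library and hours evenly spaced, not to scale. The highest point of every panel is an SD library, from 12 h (Csf3r, Socs3) to 48 h (Csf2rb2, Il6ra, Il6st, Osm).

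Across the receptors, Csf3r, the 2 beta chain genes and Csf2ra were higher in SD than in SASD at 12 and 24 h, by 1.76 to 3.63 times, whereas the ratio never exceeded 1.33 for the IL-6 receptor chains. Csf3r encodes the G-CSF receptor, which sustains neutrophil production (chr4:126024550-126044440, plus strand, protein-coding, 17 exon blocks). Its level was 989.7, 1912, 1714 and 1227 CPM in SD at 6, 12, 24 and 48 h, 991, 726, 973, 625 and 649.9 CPM in SASD at 6, 12, 24, 48 and 120 h, and 560.2 CPM in Con. At 6 h both methods were nearly equal, and the later 3 SD libraries lay above every SASD library. The ratio of SD over SASD was 0.998 at 6 h (95% counting interval 0.972 to 1.03), 2.64 at 12 h (2.56 to 2.71), 1.76 at 24 h (1.71 to 1.81) and 1.96 at 48 h (1.92 to 2.01).

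Csf2ra encodes the GM-CSF-specific alpha chain (chr19:61223957-61228429, minus strand). It measured 123, 168, 216 and 112 CPM in SD at 6, 12, 24 and 48 h, 139.6, 88.5, 75.6, 111 and 184 CPM in SASD at 6, 12, 24, 48 and 120 h, and 79.2 CPM in Con. The methods overlapped, SASD 120 h being higher than 3 of the 4 SD libraries. SD exceeded SASD by 1.90 times at 12 h (1.75 to 2.07) and 2.86 times at 24 h (2.59 to 3.16), with a ratio of 0.883 at 6 h (0.818 to 0.952) and 1.01 at 48 h (0.951 to 1.07).

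Csf2rb encodes the beta chain shared by the receptors of GM-CSF, IL-3 and IL-5 (chr15:78325752-78353847, plus strand). Its level was 133, 284, 328 and 318 CPM in SD at 6, 12, 24 and 48 h, 126, 78.4, 142, 127 and 102 CPM in SASD at 6, 12, 24, 48 and 120 h, and 65.9 CPM in Con. From 12 h the SD libraries formed a plateau above every SASD library, while SD 6 h lay below SASD 24 h. The ratio of SD over SASD was 1.05 at 6 h (0.974 to 1.13), 3.63 at 12 h (3.34 to 3.94), 2.31 at 24 h (2.15 to 2.49) and 2.49 at 48 h (2.39 to 2.60).

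Csf2rb2, the mouse duplicate of that gene, encodes a beta chain used with the IL-3 receptor (chr15:78282507-78305721, minus strand, next to Csf2rb). It had 16.8, 35.1, 50.9 and 75.7 CPM in SD at 6, 12, 24 and 48 h, 19.9, 11.6, 21.6, 19.97 and 17.5 CPM in SASD at 6, 12, 24, 48 and 120 h, and 8.12 CPM in Con. SD 6 h lay within the SASD range and the later SD libraries above it, each higher than the one before. The level in SD 48 h was 9.32 times that in Con (8.15 to 10.7) and 3.79 times that in SASD 48 h (3.42 to 4.20).

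The beta chain genes share part of their sequence. Of the 50-base words in their annotated transcripts, 12.3% of those of Csf2rb also occur in Csf2rb2, and 18.4% of those of Csf2rb2 in Csf2rb. A read that lies wholly in these stretches cannot tell the genes apart, and how such reads were handled was not examined. Csf2rb2 took 11.3%, 11.0%, 13.4% and 19.3% of the counts of both genes in SD at 6, 12, 24 and 48 h, 13.6%, 12.9%, 13.2%, 13.6% and 14.6% in SASD at 6, 12, 24, 48 and 120 h, and 11.0% in Con. The interval of SD 48 h (18.2% to 20.3%, exact Clopper-Pearson, counting error only) lay above those of the other 9 libraries, the highest of which ended at 16.7%. Between 6 and 24 h the SD shares overlapped the SASD shares within their intervals.

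**Figure D2:**
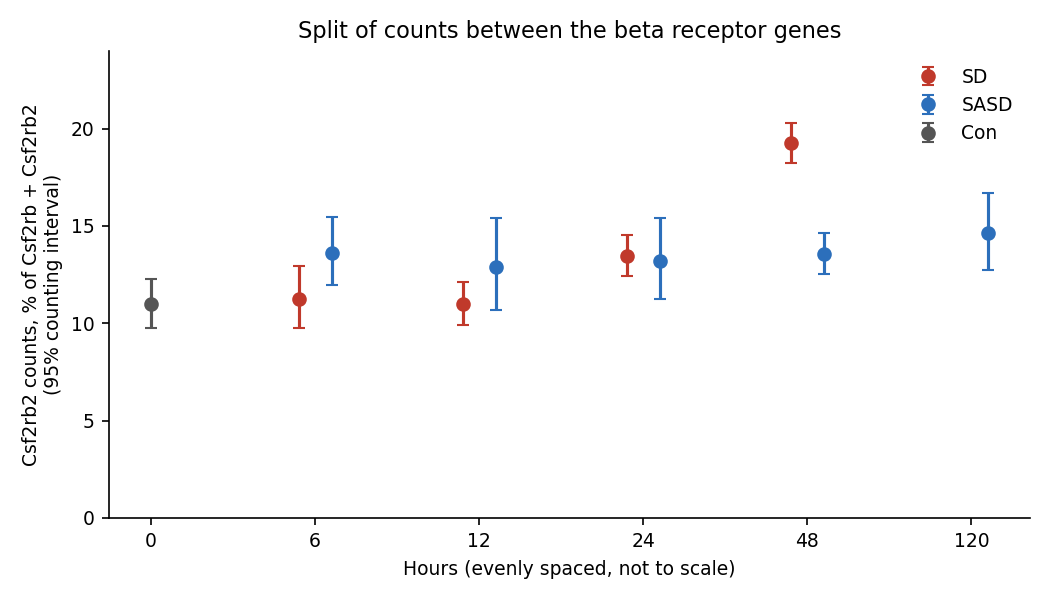
Share of Csf2rb2 in the counts of Csf2rb and Csf2rb2 by hours, in percent, with 95% counting intervals, 1 point per library in SD (red), SASD (blue) and Con (grey). SD 48 h stands at 19.3%, and the other 9 libraries lie between 11.0% and 14.6%.

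The IL-6 receptor chains had a narrow range, their highest library being 1.84 times the lowest for Il6ra and 1.73 times for Il6st. Il6ra encodes the IL-6-binding chain (chr3:89864059-89913196, minus strand), of which 242 exonic bases overlap Gm42809 on the other strand. It had 170.1, 207, 260.3 and 300.3 CPM in SD at 6, 12, 24 and 48 h, 176, 173, 196, 233 and 177 CPM in SASD at 6, 12, 24, 48 and 120 h, and 163 CPM in Con. Its highest level was in SD 48 h and SASD 48 h was the highest of its method, the ratio between them being 1.29 (1.24 to 1.34). The interval of the 6 h ratio, 0.964, included 1 (0.903 to 1.03).

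Il6st encodes gp130, the signalling chain of the whole IL-6 family (chr13:112464070-112510086, plus strand). Its level was 104, 99.0, 120.4 and 164 CPM in SD at 6, 12, 24 and 48 h, 94.9, 107, 104, 125 and 100.1 CPM in SASD at 6, 12, 24, 48 and 120 h, and 106 CPM in Con. SD 48 h was the highest library, and the other 3 SD libraries lay within the SASD range. The ratio of SD over SASD was 1.10 at 6 h (1.01 to 1.20), 0.924 at 12 h (0.845 to 1.01), 1.16 at 24 h (1.05 to 1.27) and 1.32 at 48 h (1.25 to 1.39). Il6st was the 1 gene of the 9 that lay below Con in part of the SD libraries, at 6 and 12 h.

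Osm, the ligand of the set, encodes oncostatin M, an IL-6 family cytokine made by activated neutrophils and macrophages that acts through gp130 (chr11:4236420-4241026, plus strand). Its level was 11.0, 19.3, 21.6 and 24.4 CPM in SD at 6, 12, 24 and 48 h, 7.99, 8.03, 12.4, 8.21 and 9.01 CPM in SASD at 6, 12, 24, 48 and 120 h, and 7.57 CPM in Con. SD was the higher method at all 4 hours, although SD 6 h lay below SASD 24 h. The ratio of SD over SASD was 1.37 at 6 h (1.03 to 1.84), 2.41 at 12 h (1.83 to 3.19), 1.74 at 24 h (1.35 to 2.27) and 2.97 at 48 h (2.51 to 3.52). The wide intervals follow from 74 to 356 counts of Osm per library.

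Downstream, Stat3 and its feedback inhibitor parted in size. Stat3 encodes the transcription factor itself (chr11:100885098-100939540, minus strand) and shares 72 exonic bases with Stat5a on the other strand. It had 241, 306, 345 and 337 CPM in SD at 6, 12, 24 and 48 h, 203, 202, 251, 262 and 213 CPM in SASD at 6, 12, 24, 48 and 120 h, and 211 CPM in Con. SD exceeded SASD at every shared hour, by 1.19 times at 6 h (1.12 to 1.26), 1.51 at 12 h (1.43 to 1.60), 1.37 at 24 h (1.30 to 1.46) and 1.28 at 48 h (1.24 to 1.33).

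Socs3 encodes the inhibitor that binds gp130 and the G-CSF receptor (chr11:117966079-117970047, minus strand). It measured 103, 326, 285 and 238 CPM in SD at 6, 12, 24 and 48 h, 100.2, 72.0, 74.5, 69.4 and 65.0 CPM in SASD at 6, 12, 24, 48 and 120 h, and 44.7 CPM in Con. The highest SASD library and the lowest SD library were both at 6 h and nearly equal, and after that the methods lay far apart. The ratio of SD over SASD was 1.03 at 6 h (0.944 to 1.12), 4.52 at 12 h (4.16 to 4.93), 3.82 at 24 h (3.47 to 4.21) and 3.43 at 48 h (3.24 to 3.62). Socs3 was the 1 gene of the 9 whose lowest SD library exceeded its highest SASD library of 6 to 48 h, as did 1.84% of 13370 genes.

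Read against all genes, the 9 leaned to SD from 12 h on. The 9 were chosen with earlier results of these data known, so the shares of all genes in these results are descriptive and not independent support. At 6 h, 0 of 9 were at least 2-fold higher in SD than in SASD, beside 0.104% of all genes averaging 25 counts or more in the pair. At 12 h there were 5 (Csf3r, Csf2rb, Csf2rb2, Osm and Socs3) beside 2.83% of all genes, at 24 h 4 (Csf2ra, Csf2rb, Csf2rb2 and Socs3) beside 3.88%, and at 48 h 4 (Csf2rb, Csf2rb2, Osm and Socs3) beside 4.14%. SD lay above SASD at all 4 shared hours for 4 genes (Csf2rb, Osm, Stat3 and Socs3), where 9.72% of all genes did, and at 12, 24 and 48 h for 8, all but Il6st, where 18.9% did. The highest of the 10 libraries was an SD library for 9 of 9, against 31.4% of all genes.

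**Figure D3:**
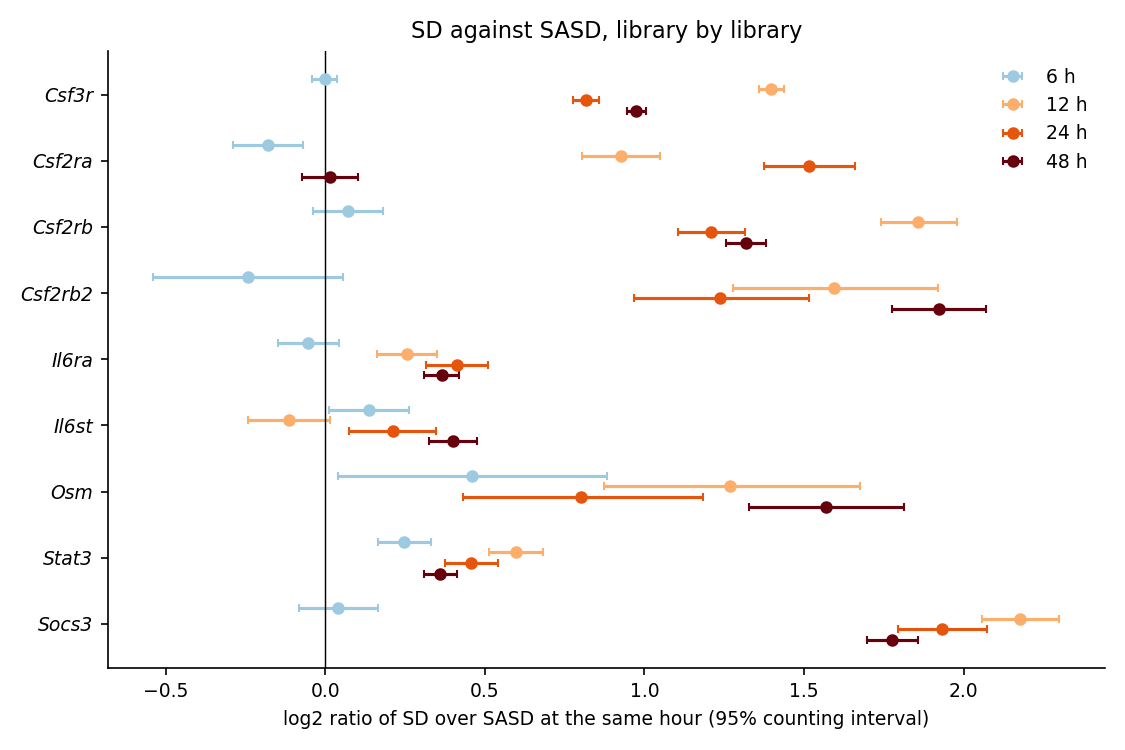
Log2 ratio of SD over SASD at 6, 12, 24 and 48 h (light blue to dark red) for the 9 genes, with 95% counting intervals. The 6 h ratios lie between -0.24 (Csf2rb2) and 0.46 (Osm), and the 12 h ratio of Socs3 is the highest at 2.18.

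Both methods were also set against Con, which is a single library shared by these ratios. SD lay above Con at all 4 hours for 8 genes, all but Il6st (29.2% of all genes), and SASD at all 5 hours for 6, namely Csf3r, Csf2rb, Csf2rb2, Il6ra, Osm and Socs3 (18.4% of all genes). At 48 h the 3 libraries compared were all poor in haemoglobin, though unlike in depth and in genes counted. There, 5 genes were at least 2-fold higher in SD than in Con (Csf3r 2.19, Csf2rb 4.82, Csf2rb2 9.32, Osm 3.22 and Socs3 5.32 times), beside 4.42% of all genes. In SASD 48 h the ratios over Con of these genes were 1.12, 1.93, 2.46, 1.08 and 1.55 in that order, and Csf2rb2 alone passed 2-fold, beside 1.48% of all genes.

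When the 4 shared hours were fitted together, with time as a block, no single gene of the table was called. All 9 estimates of SD over SASD were positive (49.2% of 13370 genes were), with a median log2 of 0.79 against -0.0033 for all genes. The log2 estimate was 1.49 ± 0.33 (SE) for Socs3, 1.16 ± 0.32 for Csf2rb2, 1.11 ± 0.26 for Csf2rb, 1.04 ± 0.19 for Osm and 0.79 ± 0.22 for Csf3r. Smaller values were 0.55 ± 0.27 for Csf2ra, 0.41 ± 0.10 for Stat3, 0.24 ± 0.11 for Il6ra and 0.15 ± 0.11 for Il6st. EdgeR called 0 of 9 and 0.0% of all genes, the adjusted p of the 9 running from 0.310 to 0.761. Unadjusted p was under 0.05 for 6 of 9 (all but Csf2ra, Il6ra and Il6st), beside 1082 of 13370 genes, of which 811 were higher in SD. Limma called 0 of the 13370 genes and DESeq2 169, among them Csf3r, Csf2rb, Csf2rb2 and Osm (DESeq2 adjusted p = 0.0276, 0.00328, 0.0267 and 0.00438). With no count minimum, and so more genes tested, edgeR called 389 genes, among them Csf3r, Csf2rb, Csf2rb2, Osm and Socs3. Without the 6 h libraries edgeR called 237 genes, with Socs3 at 1.95 (edgeR adjusted p = 0.00876), Csf2rb2 at 1.59 (0.0142), Csf2rb at 1.45 (0.0151) and Osm at 1.22 (0.0376). Without 12, 24 or 48 h it called 0 of the 9, their lowest edgeR adjusted p being 0.906, 0.852 and 0.559.

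The hours under each method were then fitted as a trend, the slope being the log2 change per doubling of (1 + hours/6). Under SD, Csf2rb2 rose by 1.03 ± 0.09 (SE, 5 libraries, edgeR adjusted p = 0.0411), the 1 call among the 9, where 0.124% of 14562 genes were called. The other 8 slopes were positive and not called, at 0.82 ± 0.30 for Socs3, 0.76 ± 0.17 for Csf2rb, 0.55 ± 0.10 for Osm, 0.40 ± 0.22 for Csf3r, 0.29 ± 0.06 for Il6ra, 0.26 ± 0.19 for Csf2ra, 0.23 ± 0.07 for Stat3 and 0.18 ± 0.07 for Il6st (edgeR adjusted p from 0.130 to 0.684). The Csf2rb2 slope was 1.02 to 1.04 without SD 6, 12 or 24 h and not called then (edgeR adjusted p = 0.174, 0.0530 and 0.211), nor with hours on a linear scale (0.417). Limma called Csf2rb2 alone of the 9 in this trend, whereas 6 (Csf2rb, Csf2rb2, Il6ra, Osm, Stat3 and Socs3) were called by DESeq2 and, with a term for the haemoglobin-poor libraries, by edgeR. Of the 14562 genes, limma called 69, DESeq2 456 and edgeR with that term 796, beside 18 in the main fit. Without SD 48 h edgeR called 511 genes, among them 4 of the 9, namely Csf2ra, Csf2rb, Csf2rb2 and Osm. With the counts of Csf2rb and Csf2rb2 summed, an alternative chosen after seeing the data, the joint slope was 0.80 (edgeR adjusted p = 0.172).

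Under SASD the slopes lay between -0.04 (Csf3r) and 0.19 (Csf2rb2), 8 of 9 above 0, and edgeR called 0 of 9 and 0.0% of 14602 genes, with 443 genes and 0 of the 9 at an unadjusted p under 0.05; limma and DESeq2 called 0 as well. SD slopes minus SASD slopes, fitted with Con shared and SASD 120 h left out, were positive for 9 of 9 (46.4% of all genes) and called for 0, where 0.41% of 14138 genes were called. The differences nearest to the threshold were Osm at 0.49 ± 0.09 (edgeR adjusted p = 0.0640) and Csf2rb2 at 0.58 ± 0.11 (0.0704), followed by Socs3 at 0.77 ± 0.18 (0.148) and Csf2rb at 0.53 ± 0.12 (0.150). With a term for the libraries poor in haemoglobin counts these 4 were called (edgeR adjusted p = 0.00827, 0.00821, 0.0126 and 0.0190 in that order), as they were by DESeq2. Of the 14138 genes, these fits called 264 and 272, beside 58 in the main fit. Limma, and edgeR with no count minimum, called Csf2rb2 and Osm, among 102 and 88 genes in all. Without Con edgeR called 117 genes, among them 3 of the 9 (Csf2rb2, Osm and Socs3), and without 6, 12, 24 or 48 h it called 0 of the 9.

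**Figure D4:**
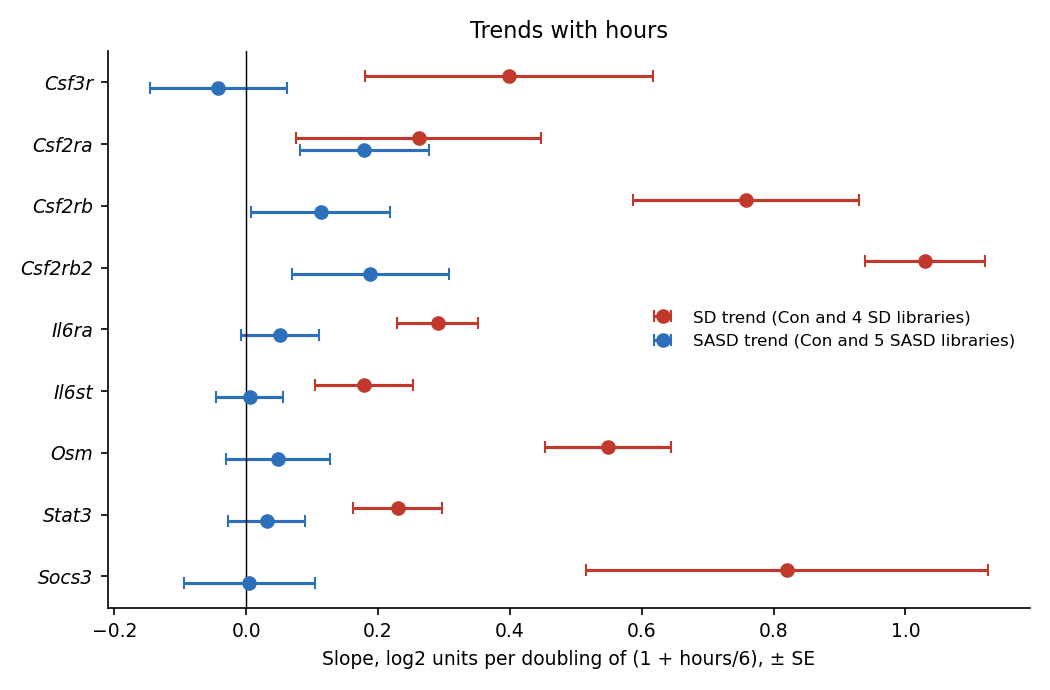
Slopes of the 9 genes with hours, in log2 units per doubling of (1 + hours/6), with SE, under SD (red, Con and 4 SD libraries) and SASD (blue, Con and 5 SASD libraries). SD slopes run from 0.18 (Il6st) to 1.03 (Csf2rb2), and SASD slopes lie between -0.04 and 0.19.

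Per kilobase of exon, the G-CSF receptor was the most abundant of the 9 transcripts in all 10 libraries, with 274, 529.9, 475 and 340.1 CPM per kb in SD at 6, 12, 24 and 48 h, 173 to 275 CPM per kb in SASD and 155 CPM per kb in Con. Second place differed between the methods. On the same per-length scale it was held by Socs3 in SD at 12, 24 and 48 h (113, 98.4 and 82.2 CPM per kb). It was held by Csf2ra in SD 6 h (42.9 CPM per kb), in SASD at 6, 12, 48 and 120 h (48.6, 30.8, 38.8 and 64.2 CPM per kb) and in Con (27.6 CPM per kb). In SASD 24 h, Stat3, Csf2ra and Socs3 lay at 26.4, 26.3 and 25.8 CPM per kb. Csf2rb2 was at rank 7 of 9 in SD 48 h with 15.97 CPM per kb, above Il6st (14.8) and Osm (10.7), and last in Con with 1.71 CPM per kb. With 1 library per group, no spread within a group was available to separate neighbours in this order.

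Neutrophil transcripts were higher in the same libraries. The summed level of 15 mature neutrophil markers was 2302, 4398, 6047 and 10892 CPM in SD at 6, 12, 24 and 48 h, 1503 to 2014 CPM in SASD and 1714 CPM in Con, all 15 markers having an estimate of SD over SASD above 0 (0 called). Of these markers edgeR called 1 in the SD trend and 5 in the trend difference, against 1 and 0 of the 9 genes. Precursor markers, 9 of 9 above 0, summed to 207 to 2284 CPM in SD, 123 to 461 CPM in SASD and 178 CPM in Con. Monocyte markers (9 of 12 above 0) summed to 2276 to 5408 CPM in SD, 1789 to 4923 CPM in SASD and 1991 CPM in Con, and B cell markers (0 of 10 above 0) to 4311 to 5638 CPM in SD, 5158 to 6932 CPM in SASD and 5886 CPM in Con. T cell markers (10 of 10 above 0) summed to 1560 to 2090 CPM in SD, 1233 to 2199 CPM in SASD and 1418 CPM in Con. For NK cell markers (3 of 8 above 0) the sums were 422 to 557, 400 to 545 and 548 CPM in that order. Platelet markers (1 of 8 tested above 0) summed to 2954 to 6577 CPM in SD, 1505 to 9786 CPM in SASD and 2840 CPM in Con. Eosinophil and basophil markers summed to at most 21.3 CPM in any library, their defining genes Epx, Prg2, Prg3 and Mcpt8 averaging under 10 counts.

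Set beside the mean log2 level of the mature neutrophil list, the genes differed in size and timing. The list stood 0.19, 1.54, 1.67 and 2.59 log2 units higher in SD than in SASD at 6, 12, 24 and 48 h. Socs3 exceeded this mean at 12 and 24 h with differences of 2.18 and 1.93 and was smaller at 48 h with 1.77. At 12 h Csf2rb with 1.86 and Csf2rb2 with 1.58 also exceeded the mean. At 6 h Osm with 0.45 and Stat3 with 0.25 did so. Csf3r, itself a neutrophil transcript, was below the mean at every hour, with log2 differences of -0.0022, 1.40, 0.82 and 0.97. The spread of single markers at each hour was not examined. In the fit of SD against SASD over the shared hours, the 15 markers ran from log2 0.83 to 2.52, with a median of 1.57. Estimates of the 9 genes there, 0.15 to 1.49, all lay below this median. Whether any of the 9 went beyond the markers was not tested. With the list's mean level as a covariate beside the time block, no gene of the 9 was called (edgeR adjusted p = 0.9998 for each). All 9 estimates were smaller in that fit, at 0.35 ± 0.29 for Osm, 0.33 ± 0.21 for Stat3, 0.30 ± 0.46 for Socs3, 0.28 ± 0.41 for Csf2rb, 0.28 ± 0.58 for Csf2ra, 0.15 ± 0.39 for Csf3r and 0.0098 ± 0.21 for Il6st, and Csf2rb2 and Il6ra turned to -0.24 ± 0.28 and -0.037 ± 0.19. The list was itself higher in SD than in SASD at every shared hour, so the covariate overlapped with the method in these few libraries. The SE was larger than in the fit without the covariate for all of the 9 but Csf2rb2. That fit therefore cannot separate marker level from method, and smaller estimates or missing calls in it do not decide between them. The part of the marker levels in the results was not tested.

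Of the other genes of these pathways, 71 in all, 59 were counted enough to be tested (60 in the SASD trend). They gave 0 calls in any of the 4 edgeR comparisons, in which 0.0% to 0.41% of all genes were called. Of 14 other ligands, 5 were counted enough to be tested, 4 with an estimate of SD over SASD above 0. Genes for G-CSF itself (Csf3, 0 to 3 counts per library), GM-CSF (Csf2, 0 to 5) and IL-6 (Il6, 0 to 11) were scarcely counted in these leukocytes, and Lif had 0 to 25 counts. Clcf1, an IL-6 family cytokine gene, was counted throughout at 89.4 to 148 CPM. Ebi3, a subunit of IL-27 and IL-35, stood at 7.64, 10.9, 12.9 and 11.8 CPM in SD at 6, 12, 24 and 48 h, 8.85, 5.97, 6.27, 7.78 and 9.48 CPM in SASD at 6, 12, 24, 48 and 120 h, and 7.02 CPM in Con (log2 SD over SASD 0.55 ± 0.22, edgeR adjusted p = 0.573). Csf1, the macrophage growth factor gene, gave 0.32 ± 0.18 (edgeR adjusted p = 0.715).

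Among 10 other receptor genes 7 were tested, 2 of them above 0. Il5ra, the IL-5 chain that pairs with the product of Csf2rb, lay lower in SD, with 27.3, 22.5, 22.3 and 17.1 CPM in SD at 6, 12, 24 and 48 h, 29.5, 24.5, 31.4, 35.7 and 34.2 CPM in SASD at 6, 12, 24, 48 and 120 h, and 34.1 CPM in Con. SD lay below SASD at all 4 shared hours, yet the estimate of -0.46 ± 0.17 was not called (edgeR adjusted p = 0.554). Lifr, the receptor chain for leukaemia inhibitory factor, gave 0.46 ± 0.23 (edgeR adjusted p = 0.686). Of 15 kinase, STAT and adaptor genes 9 were above 0, with a median log2 of 0.05. Gab2, a docking adaptor, was the most distant from 0 among those averaging 50 counts or more, at 0.43 ± 0.14 (edgeR adjusted p = 0.455).

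The other inhibitors did not share the size of the Socs3 difference. Of 14, 6 were above 0, with a median log2 of -0.06, the most distant among those averaging 50 counts or more being Socs1 at 0.42 ± 0.19 and Socs7, another family member, at -0.19 ± 0.10 (edgeR adjusted p = 0.631 and 0.686). Of 18 genes known to respond to STAT3, 16 were above 0 with a median log2 of 0.32, 9 with a positive estimate at an unadjusted p under 0.05 (6.07% of all genes) and 0 called. Slopes above 0 numbered 18 of 18 under SD (46.3% of all genes) and 13 of 18 under SASD (46.7% of all genes). This list, too, was chosen with earlier results of these data known. The gene with the highest estimate was Lrg1, a leucine-rich glycoprotein of neutrophil granules and acute-phase plasma. It had 71.4, 352, 439 and 268 CPM in SD at 6, 12, 24 and 48 h, 77.1, 37.6, 102, 29.8 and 28.6 CPM in SASD at 6, 12, 24, 48 and 120 h, and 15.97 CPM in Con. As for Socs3, the methods were close at 6 h and far apart later (log2 2.16 ± 0.54, edgeR adjusted p = 0.340). Cebpb, a transcription factor of emergency granulopoiesis, gave 0.95 ± 0.25 (edgeR adjusted p = 0.356).

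**Figure D5:**
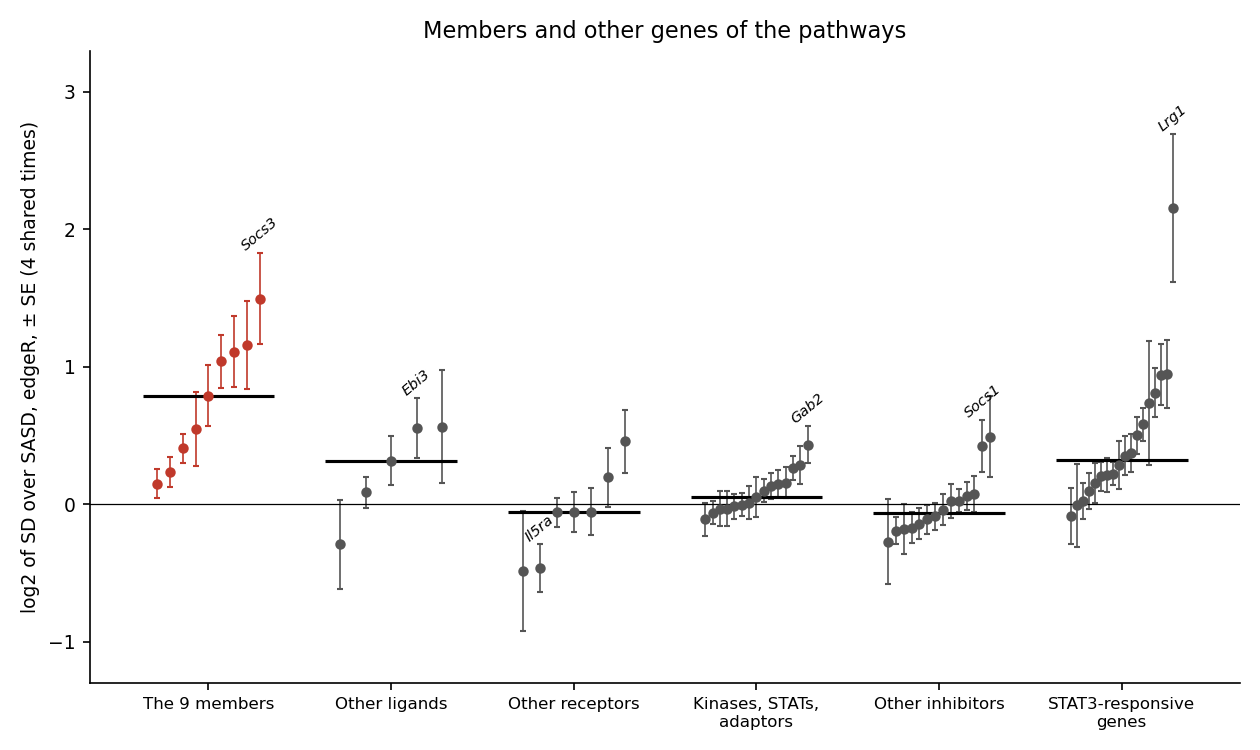
Log2 of SD over SASD over the 4 shared hours, with SE, for the 9 genes (red) and the tested genes of 5 other lists of the pathways (grey), black bars marking medians and labels the gene of each list farthest from 0 among those averaging 50 counts or more. The median of the 9 is 0.79, and those of the other lists lie between -0.06 and 0.32.

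The shapes over the 10 libraries were compared as the root mean square difference of centred log2 CPM among 9611 genes averaging 100 counts or more. Nearest to Csf3r were Il1rn, the IL-1 receptor antagonist gene, at 0.075, and Sbno2 at 0.14. Csf2rb was nearest to Il13ra1 (0.12) and Hp, the haptoglobin gene (0.14), and Csf2rb2 to Ltb4r1, a leukotriene receptor gene (0.16), and Nfil3 (0.19). Socs3 was nearest to Lilr4b (0.19) and Il1b (0.20), Osm to Lmnb1 (0.16) and Ifnlr1 (0.17), and Csf2ra to Metrnl (0.18) and Atf3 (0.24). For the genes with narrow ranges the nearest were Fuca2 (0.063) and Atp6v1a (0.086) to Il6ra, Arpc3 (0.086) and Ppm1h (0.089) to Il6st, and Lbr (0.050) and Mfsd14b (0.069) to Stat3. Within the 9, Il6ra and Stat3 were the closest pair at 0.13 and Il6st and Socs3 the farthest at 0.89, while Csf2rb and Csf2rb2 were 0.26 apart. The measure also depends on how far a gene varied, being small for any pair of genes with narrow ranges. The SD of log2 CPM over the 10 libraries was 0.22 for Il6st and 0.28 for Il6ra and for Stat3. It was 0.78 for Csf2rb, 0.91 for Csf2rb2 and 0.95 for Socs3. These values are a description over 10 libraries that differ in depth and haemoglobin share.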

How the data were processed

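RNA of blood leukocytes was sequenced in 10 libraries, 1 per group, each from 3 pooled mice. Per the submitters' processing notes, reads were trimmed with Trimmomatic 0.39 and aligned to mm10 with STAR 2.7.9a. Counting was done by the authors with featureCounts 2.0.3, per the file headers, on read pairs in exons and without a strand option, so overlapping genes on opposite strands cannot be told apart. The deposited values were raw counts, summing to 7825120 to 27501393 per library. All 32285 identifiers were looked up in GENCODE release 21 for mouse, and 32158 had a symbol there.

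From these counts, genes with a mean of at least 10 over the fitted libraries were tested with edgeR 4.0.16 (R 4.3.3, TMM). SD against SASD used 8 libraries with time as a block, SD and SASD trends Con and the libraries of a method, and their difference 9 libraries. Each SE is the estimate divided by the root of its F value. Alternatives were DESeq2 1.42.0, limma 3.58.1 (voom), other scaling, no count minimum, linear hours, terms for time, haemoglobin-poor libraries or neutrophil level, and each library or hour left out. The code was checked on data with known changes. Intervals came from scipy 1.17.1.

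The 9 genes and all lists were chosen with earlier results of these data known. Besides the 9, other pathway genes that passed, the 2 largest estimates of each list at a mean count of at least 50 and the 2 nearest genes in shape were to be named, 1 of which is not reported here; the ligands with few counts, Clcf1 and the eosinophil and basophil genes were chosen after their values were seen.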

Additional observations from a re-analysis of the deposited data

How the results depend on the processing

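With 1 library per group, the calls depended on the fit and the left-out library. For SD against SASD edgeR called 0 genes, 389 with no count minimum and 0 to 237 with 1 hour left out, and DESeq2 called 169. For the SD trend it called 18, 63 with no count minimum, 0 with linear hours, 796 with the haemoglobin term and 0 (without SD 6, 12 or 24 h) to 511 (without SD 48 h) with 1 library left out; DESeq2 called 456 and limma 69. For the SASD trend the range over left-out libraries was 0 to 1. The trend difference gave 58 calls, 88 with no count minimum, 6 with linear hours, 264 with the haemoglobin term and 0 (without 12 or 24 h) to 117 (without Con) with a library or hour left out, and 272 with DESeq2 and 102 with limma.

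Of the 9 genes, Csf2rb2 and Il6ra turned to -0.24 and -0.037 in SD against SASD with the neutrophil covariate. The Csf2ra slope under SD ran from -0.018 (without Con) to 0.62 (without SD 48 h). Flat SASD slopes changed sign: Csf3r ran from -0.18 to 0.024, Csf2rb from -0.022 to 0.25, Il6st from -0.022 to 0.052 and Socs3 from -0.16 to 0.094 with 1 library left out. With linear hours Il6st stood at -0.0080 and Socs3 at -0.033, and with the haemoglobin term Socs3 at -0.0067. The cause was not tested. No estimate of the 9 changed sign in the trend difference under the alternatives run. SD against SASD was fitted with the hour as the pairing of libraries, and without that block edgeR also called 0 genes; the labels give no replicate numbers to pair by.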
